A study of Solanum lycopersicum with 12 samples.

Results

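Ripe fruits of a red tomato were compared with ripe fruits of a yellow one. The red tomato bears No. 20 and the yellow one No. 19, both are Solanum lycopersicum, and the fruits were taken at maturity, 55 days after flowering. Each of these groups held 3 RNA-seq libraries, so the comparison used 6 of the 12 libraries of the series. The other 6, with 3 libraries each, came from the same red and yellow tomatoes at color break, 40 days after flowering. Genes entered the comparison when their FPKM (fragments per kilobase, scaled to library depth) reached at least 1 in at least 3 of the 12 libraries, which kept 15974 of the 24215 genes in the table. Just inside that limit stood Solyc01g057430 and Solyc03g032080, whose FPKM of rank 3 over the 12 libraries was 1.0011 and 1.0016. Just outside it stood Solyc06g016770 and Solyc01g088810, at 0.99946 and 0.99951. The labels give no treatment, transgene or named allele, call the tissue fruits, and do not say whether seeds were taken out or whether the libraries of a group came from separate plants. The p-values therefore measure only the spread between these libraries, which may be technical.

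Ripe tomato flesh is red through lycopene, a carotenoid that phytoene synthase 1 (PSY1) begins to build from the isoprenoid pathway of the plastid. The peel adds a yellow flavonoid, naringenin chalcone, whose genes are switched on by the transcription factor MYB12, and fruits that lack the flavonoid have a clear peel. Ripening itself is driven by the regulators RIN, NOR and CNR and by the gas ethylene, which together turn on wall-softening enzymes, aroma synthesis and pigment synthesis while the photosynthetic apparatus of the green fruit is taken down.

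The markers of ripe fruit were abundant in all 6 mature libraries, where the lowest value was 1600 FPKM for PSY1, 3336 for E8, 558 for PG2A and 235 for RIN. Total counts ran between 52954311 and 58158213 in red and between 50963462 and 60484460 in yellow. Replicate 1 of red at maturity stood apart from replicates 2 and 3. In it, 394 genes lay at least 1 log2 unit of CPM (depth-scaled counts) above the mean of the other two red libraries, and 361 of these 394 genes were lower in red than in yellow as groups. The number of tested genes with at least 10 counts in a single library and 0 in both others of its group was 106 for red replicate 1, 5 for red replicate 2, 8 for red replicate 3 and between 6 and 10 for the yellow libraries. The counts of the red libraries differed among themselves with a chi-square per degree of freedom of 29.9 (replicates 1 and 2), 28.3 (1 and 3) and 11.2 (2 and 3), against 5.39 to 6.30 among the yellow libraries, so no pair of libraries agreed within sampling noise. The counts of calls over all genes, over the gene lists and between the stages were therefore also made without red replicate 1. The depth implied by the deposited FPKM, relative to that of yellow replicate 1, was 0.990, 0.946 and 0.954 of the summed count in red, against 0.991 and 0.995 in yellow replicates 2 and 3. FPKM values of red replicates 2 and 3 are thus slightly raised beside the rest, whereas the fold changes come from counts scaled by TMM (trimmed mean of M-values).

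Red and yellow mature fruits differed in 1781 of the 15974 genes tested (11.1%), of which 521 were higher in red (3.26%) and 1260 lower in red (7.89%). A gene was called when edgeR's quasi-likelihood test gave a Benjamini-Hochberg adjusted p under 0.05 and the log2 fold change, red over yellow, was at least 1 in size. Without red replicate 1 the test called 1923 genes (12%), 537 higher (3.36%) and 1386 lower (8.68%). In total 1714 genes were called in both fits in the same direction and 0 in opposite directions. Changes of more than 4-fold numbered 158 genes higher and 518 genes lower in red, and 158 and 588 without red replicate 1. Of all calls 29.3% were higher in red. In edgeR this share was 29.2% with RLE, 29.9% with upper-quartile scaling and 35.1% with library totals alone. It was 39.1% in limma on log2(FPKM + 1), 38.2% with a pseudocount of 0.1, and 42.1% after the FPKM were rescaled to a fixed total, while the median log2 fold change of all genes tested moved to 0.12 and 0.16 in the first and the last of these, against 0.0030 in the main fit. The limma settings change the test, the unit and the scaling together, and which of these moved the share was not tested. The counts below are read against the 3.26% and 7.89% of all genes. The FPKM of the red and yellow libraries did not overlap in 1733 of the 1781 calls, and in 64.9% of all genes tested.

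**Figure D1:**
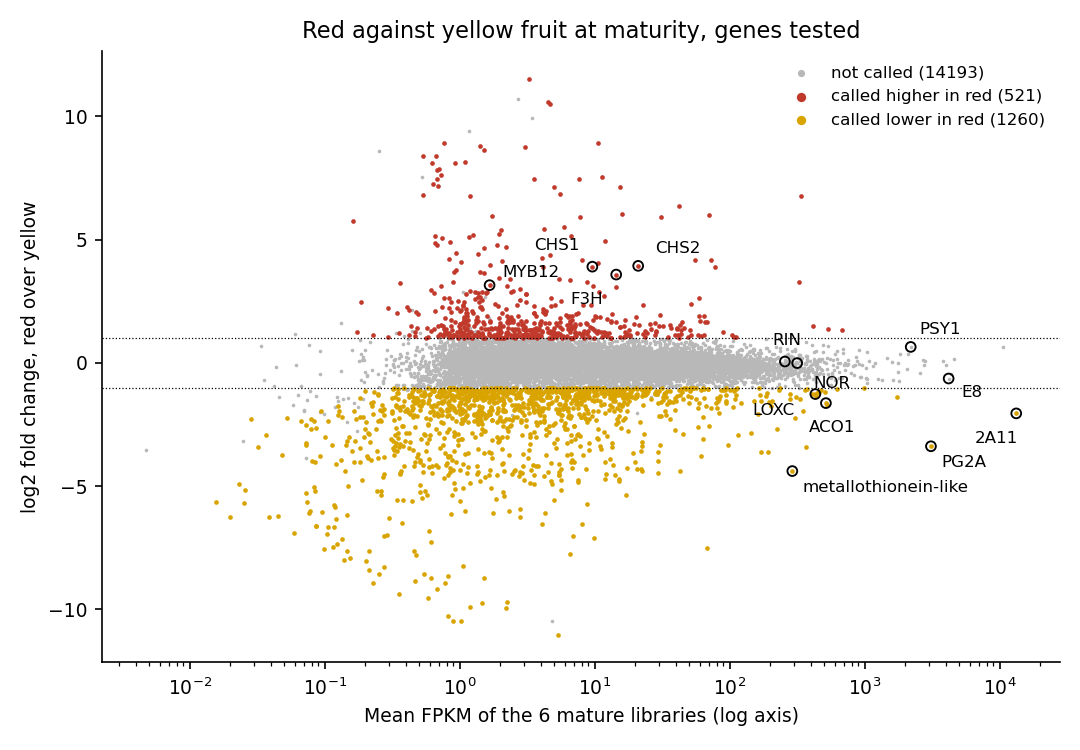
Log2 fold change of red over yellow fruit at maturity (vertical axis) against the mean FPKM of the 6 mature libraries (log axis) for the genes tested. Points in red are the 521 genes called higher, points in yellow the 1260 called lower, grey points the genes not called, and dotted lines the minimum change of 1. Circled are the 12 genes always described and the fruit-specific 2A11. More points lie below the lower dotted line than above the upper one.

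Of the lists with at least 5 tested members, the flavonoid pathway had the highest share of rises. It has 14 genes in the deposited data, of which 9 were tested and 7 called, all higher in red, with a median log2 fold change of 2.86 over the 9, beside 0.0030 over all genes tested. The same 7 were called without red replicate 1, with a median of 2.76. MYB12 (Solyc01g079620), the regulator of the pathway in the peel, had 3.53, 2.70 and 2.88 FPKM in red and 0.397, 0.265 and 0.231 FPKM in yellow. All red libraries lay above all yellow ones, and the log2 fold change was 3.15 ± 0.20 (SE, adjusted p = 1.24e-08, edgeR). Chalcone synthase, the entry enzyme, has 2 ripening copies. CHS1 (Solyc09g091510) stood at 19.6, 15.5 and 19.3 FPKM in red and 0.995, 1.28 and 1.01 FPKM in yellow, a log2 fold change of 3.90 ± 0.12. CHS2 (Solyc05g053550) stood at 39.8, 41.5 and 37.7 FPKM in red and 1.73, 2.42 and 2.95 FPKM in yellow, a log2 fold change of 3.94 ± 0.13. Since both copies encode nearly the same enzyme, reads may be divided between them, but neither copy overlapped between red and yellow.

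Further called genes of the pathway followed the same direction. The listed chalcone isomerase CHI1 (Solyc05g010310) was not among the 9 tested members. The gene described as a probable chalcone-flavonone isomerase 3 (CHIL, Solyc05g052240) had 21.4, 19.5 and 16.5 FPKM in red and 2.15, 2.63 and 2.38 FPKM in yellow, with a log2 fold change of 2.86 ± 0.11. Flavanone 3-hydroxylase (F3H, Solyc02g083860), which makes dihydroflavonols, had 28.1, 26.9 and 25.6 FPKM in red and 2.2, 1.83 and 2.06 FPKM in yellow, with a log2 fold change of 3.58 ± 0.10 (adjusted p = 4.10e-12, edgeR). Neither gene overlapped between red and yellow. Flavonoid 3′-hydroxylase (F3'H, Solyc03g115220) reached 7.84, 7.54 and 8.43 FPKM in red, against 1.98, 2.69 and 2.41 FPKM in yellow. Flavonol synthase (FLS, Solyc11g013110), the branch to flavonols, was the most abundant of the called members at 89.9, 102 and 90.6 FPKM in red, against 25.2, 27.1 and 27.0 FPKM in yellow, with a log2 fold change of 1.70 ± 0.05. The smallest rise of the 7 was that of F3'H, at 1.61 ± 0.13. The 2 tested members that were not called were a flavonol glucosyltransferase (Solyc03g114710), at a log2 fold change of 0.47 ± 0.10, and another chalcone-flavonone isomerase family member (Solyc07g062030), at -0.67 ± 0.08. The genes of the anthocyanin branch did not pass the filter: the highest value of any mature library was 0.0307 FPKM for DFR, 0.307 FPKM for A3GT and 0.918 FPKM for ANS.

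**Figure D2:**
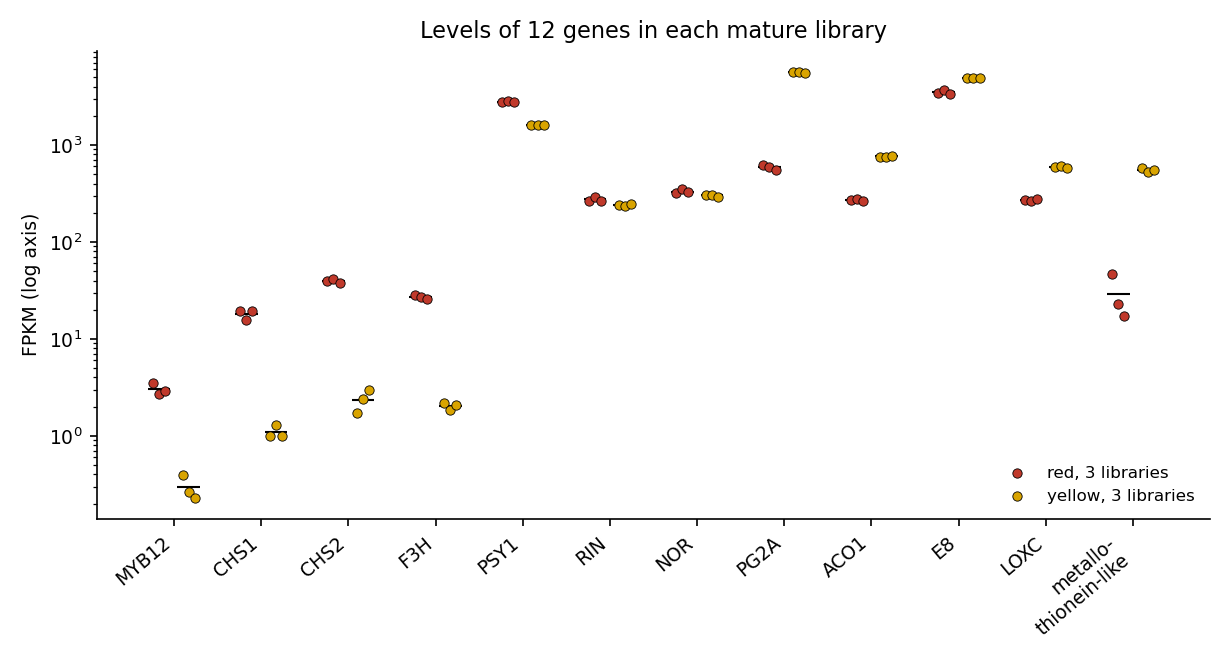
FPKM (log axis) of 12 genes in each mature library, with red libraries to the left of the yellow ones in each gene; horizontal bars are group means. The 3 red libraries lie above the 3 yellow ones for MYB12, CHS1, CHS2, F3H and PSY1, and below them for PG2A, ACO1, E8, LOXC and the metallothionein-like gene.

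Phenylpropanoid genes, which feed flavonoids as well as lignin, did not move together. Among the 6 tested genes of the entry list, 1 was called higher and 1 lower, with a median log2 fold change of 0.39; without red replicate 1, yellow replicate 1 or yellow replicate 2 there were 2 higher. A gene described as a flavonoid-linked 4-coumarate:coenzyme A ligase (Solyc03g097030) had 1.71, 2.08 and 1.62 FPKM in red and 0.266, 0.389 and 0.335 FPKM in yellow, a log2 fold change of 2.29 ± 0.15. Phenylalanine ammonia-lyase (Solyc10g086180), the first enzyme of the pathway, had 6.15, 6.54 and 6.36 FPKM in red and 26.6, 26.7 and 27.8 FPKM in yellow, a log2 fold change of -2.23 ± 0.05 (adjusted p = 3.84e-13, edgeR). One enzyme was thus higher and the other lower in red, each with no overlap. In the wider phenylpropanoid pathway of the table's KEGG annotation 2 of 37 tested genes were called higher and 12 lower. Among the 12, cinnamoyl-CoA reductase (Solyc06g068440), the first committed step to lignin monomers, had 73.2, 67.9 and 66.4 FPKM in red, against 153, 154 and 153 FPKM in yellow. Shikimate O-hydroxycinnamoyltransferase (Solyc03g117600) had 6.60, 7.99 and 8.10 FPKM in red, against 18.9, 18.3 and 18.1 FPKM in yellow. This KEGG group and the other annotation groups below were chosen after their values were seen and carry no test.

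Carotenoid genes changed far less than flavonoid genes. In the list of lycopene synthesis and isoprenoid supply all 12 genes were tested and 1 was called, lower in red. An adjusted p under 0.05 in edgeR was reached by 11 of the 12, beside 57.1% of all genes tested. The median log2 fold change was -0.26. PSY1 (Solyc03g031860, at 3:4350647-4356442 of the table) had 2743, 2826 and 2767 FPKM in red and 1599.5, 1617 and 1616 FPKM in yellow. All red values lay above all yellow ones, by a log2 fold change of 0.65 ± 0.02 (adjusted p = 2.07e-11, edgeR), which is under the minimum of a call. The called member was the geranylgeranyl diphosphate synthase GGPPS2 (Solyc04g079960), which makes the substrate of PSY1. It had 20.5, 19.6 and 18.4 FPKM in red and 52.1, 51.6 and 49.5 FPKM in yellow, a log2 fold change of -1.53 ± 0.06. Phytoene desaturase (PDS), at -0.59, and the plastid isoprenoid enzymes DXS1, at -0.54, and DXR, at -0.44, had negative log2 fold changes under the minimum of a call. Carotenoid isomerase (CRTISO) stood at -0.05 ± 0.04, with an edgeR adjusted p of 0.343.

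Beyond lycopene, 8 of the 9 listed genes were tested, of which 1 was called higher and 1 lower, with a median of -0.24. Violaxanthin de-epoxidase (VDE, Solyc04g050930), which runs the xanthophyll cycle in the light direction, had 5.32, 4.33 and 4.4 FPKM in red and 15.8, 16.6 and 16.8 FPKM in yellow, a log2 fold change of -1.94 ± 0.08. Zeaxanthin epoxidase (ZEP, Solyc02g090890), the opposite enzyme of that cycle, had 9.16, 9.66 and 9.66 FPKM in red and 3.91, 4.64 and 4.38 FPKM in yellow, a log2 fold change of 1.0 ± 0.08. The 2 enzymes thus lay on opposite sides, with VDE lower and ZEP higher in red; the call of ZEP was at the limit and was lost without red replicate 3 (0.99) or without yellow replicate 1 (0.94). Fruit lycopene cyclase (CYCB) had 28.6, 31.9 and 27.9 FPKM in red and 27.2, 26.9 and 27.8 FPKM in yellow, with a log2 fold change of -0.03 ± 0.06.

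No ripening regulator passed the call. Of the 9 regulators tested edgeR called 0, as did DESeq2 and limma on log2(FPKM + 1). In edgeR 5 had an unadjusted and 3 an adjusted p under 0.05, the latter beside 57.1% of all genes tested. The median log2 fold change was 0.03 (0.07 without red replicate 1). RIN (Solyc05g012020), a MADS-box factor, had 264, 293 and 266 FPKM in red and 239.6, 235 and 243 FPKM in yellow, with a log2 fold change of 0.06 ± 0.04 (adjusted p = 0.206, edgeR). NOR (Solyc10g006880), a NAC factor, had 316, 353 and 324 FPKM in red and 308, 305 and 294 FPKM in yellow, with a log2 fold change of -0.01 ± 0.04 (adjusted p = 0.877, edgeR). The red FPKM lay slightly above the yellow for both, while the log2 fold change of NOR, from TMM-scaled counts, was near 0. The largest change of a regulator was that of AP2a, a repressor of ripening, at -0.57 ± 0.04, with 192, 216 and 198 FPKM in red and 274, 272 and 270.3 FPKM in yellow. FUL1 and FUL2, MADS-box partners of RIN, stood at 0.25 ± 0.03 and 0.28 ± 0.05, and CNR at 0.08 ± 0.03.

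Ethylene genes were lower in red where called. Of 18 tested members 4 were called, all lower in red, and the median log2 fold change was -0.24; the same number was called without red replicate 1. ACO1 (Solyc07g049530), the ripening form of the enzyme that releases ethylene, had 271, 278 and 263 FPKM in red and 760.1, 755 and 772 FPKM in yellow. No red library came near the yellow ones, and the log2 fold change was -1.63 ± 0.03 (adjusted p = 1.66e-13, edgeR). E4 (Solyc03g111720), a classic ethylene-induced ripening gene for a methionine sulfoxide reductase, had 1191, 948 and 917 FPKM in red and 2489.9, 2320.5 and 2469 FPKM in yellow, a log2 fold change of -1.39 ± 0.09. ACO6 (Solyc02g036350), a weakly expressed relative of ACO1, had 3.08, 2.09 and 1.77 FPKM in red, against 5.98, 6.12 and 5.66 FPKM in yellow. EBF2 (Solyc07g008250), an F-box protein that removes the ethylene factors of the EIN3 family, had 24.4, 25.4 and 24.4 FPKM in red, against 56.2, 56.9 and 57.1 FPKM in yellow, at a log2 fold change of -1.33 ± 0.04. The enzymes before ACO1 in ripening, ACS2 at -0.23 ± 0.04 and ACS4 at -0.07 ± 0.04, and the receptor NR (Never-ripe) at -0.07 ± 0.03 stayed under the minimum. E8 (Solyc09g089580), another ethylene-induced gene of ripe fruit, had 3426, 3671 and 3336 FPKM in red and 4907, 4887 and 4909.5 FPKM in yellow, lower in all red libraries, with a log2 fold change of -0.63 ± 0.03 that is also under the minimum.

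Wall-softening genes that were called were lower in red more often than higher. In pectin modification 17 of 38 genes were tested and 5 called, all lower, with a median of -0.18 (-0.05 without yellow replicate 3). Polygalacturonase 2A (PG2A, Solyc10g080210), the major pectin-cutting enzyme of ripe fruit, had 627, 588 and 558 FPKM in red and 5628, 5650.0 and 5542 FPKM in yellow. The red libraries held 11.2, 10.5 and 9.95% of the yellow mean, with a log2 fold change of -3.38 ± 0.05, a 10.4-fold difference (adjusted p = 5.39e-15, edgeR). The level hardly changed between red libraries, and the fold change was -3.44 without red replicate 1. The ripening pectate lyase (PL, Solyc03g111690), which also loosens pectin in ripe fruit, had 1683, 1978 and 1922 FPKM in red and 1624, 1739 and 1661 FPKM in yellow. These groups lay close together, with a log2 fold change of 0.01 ± 0.04 and an edgeR adjusted p of 0.804. Other called members were weakly expressed, such as the pectate lyase Solyc09g091430 with 1.82, 1.45 and 1.37 FPKM in red, against 5.23, 5.50 and 6.02 FPKM in yellow, and the pectin acetylesterase Solyc01g102350 with 2.80, 3.23 and 2.99 FPKM in red, against 10.6, 8.88 and 9.77 FPKM in yellow. A further pectate lyase, Solyc02g093580, had 0 counts in all red libraries and between 37 and 46 in the yellow ones. It was at least 30.0-fold lower in red without red replicate 1. This bound sets the TMM-scaled yellow counts against a floor of 3 counts over red replicates 2 and 3.

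Among the 32 tested genes for xyloglucan, expansins and cellulose 2 were called higher and 11 lower in red, with a median of -0.21. The summed FPKM of the list went the other way, with 3476, 3983 and 3826 in red, against 2999, 3054 and 3030.5 in yellow. The genes named here were at most 11.7 FPKM in any mature library and hold little of that sum. The xyloglucan endotransglucosylase/hydrolase Solyc12g098610, of a family that cuts and rejoins xyloglucan chains, had 0.495, 0.417 and 0.400 FPKM in red and 11.7, 11.2 and 9.47 FPKM in yellow. Among genes with a symbol or description and a yellow mean of at least 10 FPKM it had the largest fall with all libraries, a log2 fold change of -4.73 ± 0.14. The endoglucanase CEL1 (Solyc08g081620) had 0.351, 0.461 and 0.432 FPKM in red, against 2.56, 2.33 and 2.88 FPKM in yellow. XTH1 (Solyc01g099630), by the symbol in the table, had 0.494, 0.933 and 0.869 FPKM in red, against 3.79, 3.90 and 4.35 FPKM in yellow. Among the expansins, which loosen walls without cutting them, the called Solyc02g081210 had 2.36, 2.75 and 2.31 FPKM in red, against 6.51, 7.12 and 7.54 FPKM in yellow. In the other direction stood the endoglucanase Solyc05g005080, with 1.79, 2.42 and 2.00 FPKM in red, against 0.524, 0.519 and 0.654 FPKM in yellow, and the xyloglucan enzyme Solyc09g092520, with 4.23, 4.93 and 4.50 FPKM in red, against 1.63, 1.65 and 1.69 FPKM in yellow. A further member, Solyc08g076080, had 0.604, 0.435 and 0.529 FPKM in red, against 2.40, 2.13 and 2.32 FPKM in yellow. The members of 1 family thus did not share a direction.

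Aroma genes are led by lipoxygenases, which start the breakdown of fatty acids. Of 13 tested members 3 were called, all lower, with a median of -0.63. LOXC (Solyc01g006540), the plastid lipoxygenase behind the C6 volatiles of tomato, had 271, 266 and 276 FPKM in red and 588, 606 and 582 FPKM in yellow, a log2 fold change of -1.26 ± 0.03 (adjusted p = 6.06e-13, edgeR). LOXA (Solyc08g014000) had 4.90, 4.66 and 4.27 FPKM in red, against 11.7, 12 and 12.2 FPKM in yellow. LOXB (Solyc01g099190), the gene with the most counts in every mature library, went the other way, with 11640.0, 13994 and 14423 FPKM in red and 7669, 7937 and 7862 FPKM in yellow. Its share of all counts was 3.61 to 4.31% in red and 2.40 to 2.47% in yellow, and its log2 fold change of 0.63 ± 0.05 was under the minimum. The alcohol dehydrogenase of class P, Solyc04g064710, had 0.631, 0.0302 and 0.0729 FPKM in red and 3.83, 3.47 and 4.23 FPKM in yellow, with red replicate 1 far above the other two. The alcohol dehydrogenase ADH2, which sets the balance of aldehydes and alcohols in ripe fruit, had a log2 fold change of -0.08 ± 0.03, and the branched-chain aminotransferase BCAT1 of -0.63 ± 0.04.

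Sugar and acid genes that were called were all lower in red, but the summed FPKM of both sugar lists was higher in red. In sucrose and starch 3 of 23 tested genes were called, all lower in red, with a median of -0.03. Of these 3, 2 were inhibitors of invertase, the enzyme that splits sucrose. INVINH1 (Solyc12g099200) had 22.1, 21.2 and 17.1 FPKM in red and 59.5, 54.6 and 52.2 FPKM in yellow, a log2 fold change of -1.60 ± 0.09. Its neighbour VIF (Solyc12g099190) had 10.8, 11.3 and 9.26 FPKM in red and 24.5, 21.0 and 21.9 FPKM in yellow, a log2 fold change of -1.24 ± 0.11. The third call was a sucrose-phosphate synthase, Solyc09g092130, with 0.434, 0.468 and 0.440 FPKM in red, against 1.23, 1.08 and 1.33 FPKM in yellow. A beta-amylase outside the list, Solyc09g091030, which breaks starch down, had 57.0, 62.3 and 63.6 FPKM in red and 21.0, 20.9 and 21.2 FPKM in yellow. Among 12 tested sugar transporters 4 SWEET genes were called lower, at most 6.74 FPKM in any mature library, and 3 without red replicate 1. Of these Solyc04g064610 had 3.06, 2.63 and 2.36 FPKM in red, against 4.67, 5.47 and 5.35 FPKM in yellow, and Solyc12g055870 had 0.0323, 0 and 0 FPKM in red, against 0.413, 0.378 and 0.641 FPKM in yellow. The call of Solyc04g064610 was lost without red replicate 3 (-0.99) and with library totals alone (-0.99). The transporter list summed to 201.22, 227.98 and 211.08 FPKM in red, against 146.24, 144.76 and 139.94 FPKM in yellow. Sucrose and starch summed to 1835.2, 2057.8 and 2054.8 FPKM in red, against 1551.4, 1563.9 and 1571.9 FPKM in yellow. In organic acids and GABA 3 of 20 were called, all lower, with a median of -0.03. The sums of that list overlapped, with 2460.6, 2691.5 and 2687.2 FPKM in red, against 2645.3, 2693.9 and 2699.0 FPKM in yellow. The called malate dehydrogenase Solyc11g007990 had 2.53, 2.73 and 2.18 FPKM in red, against 10.1, 9.95 and 10.6 FPKM in yellow. The called citrate synthase Solyc07g055840 had 1.78, 1.54 and 1.48 FPKM in red, against 6.32, 5.79 and 6.75 FPKM in yellow. The third call, a succinate dehydrogenase subunit (Solyc04g055030), had 0.0857, 0 and 0 FPKM in red, against 1.07, 0.995 and 1.28 FPKM in yellow. The GABA transaminase GABA-T1, which removes the amino acid GABA from ripening fruit, stood just under the limit at -0.95 ± 0.04, and the glutamate decarboxylase GAD2, which makes GABA, at 0.87 ± 0.07.

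The listed photosynthesis genes of the nucleus were lower in red as a body. The list leaves out genes such as psbZ (Solyc01g102770) and a Ycf4 gene (Solyc04g039810), whose descriptions also name a photosystem. Both were called higher in red, psbZ by a log2 fold change of 2.28 and Solyc04g039810 from 0 FPKM in all yellow libraries. Of 30 listed genes, 21 were tested and 14 called, all lower, with a median log2 fold change of -1.56, and 14 were called without red replicate 1, with a median of -1.71. In RNA of fruits, fewer cells of a type and less RNA per cell cannot be told apart, for these genes and for the seed and histone genes below. PSBR (Solyc07g066310), a small photosystem II subunit and the most abundant member, had 131, 83.9 and 82.7 FPKM in red and 307, 292 and 309 FPKM in yellow, a log2 fold change of -1.74 ± 0.14. Plastocyanin (PETE, Solyc04g082010), the copper protein that carries electrons to photosystem I, had 25.5, 20.6 and 19.0 FPKM in red and 58.2, 58.9 and 58.1 FPKM in yellow, a log2 fold change of -1.57 ± 0.09. PSBO (Solyc02g065400), of the oxygen-evolving complex, had 6.59, 4.42 and 3.42 FPKM in red and 24.1, 25.6 and 22.8 FPKM in yellow, and Psb28 (Solyc09g064500) had the lowest fold change of the list at -2.98 ± 0.19. The chlorophyll a-b binding protein Solyc09g014520, of the light-harvesting antenna, had 2.25, 1.13 and 1.9 FPKM in red, against 10.3, 11.1 and 9.50 FPKM in yellow, and that of photosystem I, Solyc10g006230, had 0.676, 0.289 and 0.449 FPKM in red, against 1.78, 2.35 and 2.46 FPKM in yellow. In each of these named genes red replicate 1 was the highest of the red libraries and still below each yellow library. The summed FPKM of the list was 249, 185 and 176 in red, against 531, 520.1 and 531 in yellow.

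Genes with a photosynthesis annotation did not all fall. Of 50 tested genes that the table annotates to the thylakoid, 13 were called higher and 15 lower in red, so this term had the highest share of rises (26.0%) among the 281 GO terms with at least 25 tested genes. Photosystem II, with 2 higher and 19 lower of 30, had the highest share of falls (63.3%). Of the 13 rises, 12 were at most 4.94 FPKM in any mature library, such as psbZ (Solyc01g102770), of photosystem II, with 1.40, 3.30 and 2.55 FPKM in red, against 0.516, 0.360 and 0.391 FPKM in yellow. Another plastid-type gene, rpl33 (Solyc09g064410), of the plastid ribosome, had 6.54, 10.5 and 6.36 FPKM in red, against 1.12, 0.123 and 0.0411 FPKM in yellow. The most abundant of the 13 was Solyc05g016120, annotated to photosystem I, with 62.1, 58.6 and 61.2 FPKM in red and 0.790, 0.887 and 0.995 FPKM in yellow, a log2 fold change of 5.93 ± 0.15. Further loci with photosystem terms were Solyc12g039030, with 35.5, 26.1 and 29.5 FPKM in red and 0.172, 0 and 0.400 FPKM in yellow, and Solyc01g048590, with 29.2, 31.0 and 34.1 FPKM in red and 0.187, 0.338 and 0.654 FPKM in yellow. In all 3 the red libraries lay far above the yellow ones. At color break the red-yellow log2 fold changes were 1.13 ± 0.19, 0.50 ± 0.70 and 0.76 ± 0.43 for the last 3. Copies of plastid genes occur in the nuclear chromosomes and in the plastid itself, so reads of near-identical copies may have been assigned to these loci, and their counts are uncertain in that respect.

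Seed markers had the lowest median of the lists, and their levels were uneven across the red libraries. Of 7 seed markers 6 were tested and 4 called, all lower, with a median of -3.23; without red replicate 1 there were 5, with a median of -4.55 when genes at 0 counts are set to their bound (-5.23 as fitted). Oleosins coat the oil bodies of seeds. The oleosin Solyc12g010920 had 6.76, 0.375 and 0.590 FPKM in red and 36.9, 37.7 and 37.0 FPKM in yellow, and Solyc06g034040 had 5.44, 0 and 0 FPKM in red and 26.8, 24.5 and 21.4 FPKM in yellow. Red replicate 1 held 18.2% of the yellow mean of Solyc12g010920 and 22.4% of that of Solyc06g034040, replicate 2 held 1.01% and 0, and replicate 3 held 1.59% and 0. The third called oleosin, Solyc06g060840, had 1.72, 0.782 and 1.14 FPKM in red and 16.0, 14.7 and 15.1 FPKM in yellow, a log2 fold change of -3.76 ± 0.17. The late embryogenesis abundant protein Solyc03g116390 had 5.99, 1.48 and 1.68 FPKM in red, against 19.1, 17.7 and 17 FPKM in yellow. The fourth oleosin, Solyc02g086490, had 1.66, 0 and 0 FPKM in red and 1.31, 0.645 and 0.757 FPKM in yellow. Red replicate 1 lay above every yellow library there, and the gene was not called with all libraries. The 4 oleosins summed to 15.6, 1.16 and 1.73 FPKM in red, against 81.1, 77.6 and 74.4 in yellow. The Em-like protein GEA6 (Solyc06g048840), of the embryo's desiccation proteins, had 27.1, 0.0818 and 0.0658 FPKM in red and 110.2, 112 and 121 FPKM in yellow. Its log2 fold change was -3.78 ± 0.90 with all libraries and -10.48 without red replicate 1. The list is not uniform: the Lea-like gene Solyc01g095150, with 187, 177 and 177 FPKM in red and 160.3, 155 and 154 FPKM in yellow, held most of its summed level and was not called.

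Some genes of other families were also uneven across the red libraries. The naming rule takes in genes whose fold change moved most without red replicate 1, so this unevenness is partly built in. Over whole lists, the median log2 CPM of red replicate 1 minus the mean of replicates 2 and 3 was 0.66 for lipid-transfer proteins. It was 0.44 for aquaporins and -0.03 for proteinases and their inhibitors. Among 8 tested lipid-transfer proteins 4 were called, all lower, with a median of -0.97 (-1.53 without red replicate 1); without red replicate 2 or yellow replicate 2 another was called higher. The neighbours Solyc01g090350 and Solyc01g090360 had 14.6, 0 and 0 and 12.4, 0.147 and 0.375 FPKM in red, against 52.6, 55.0 and 55.6 and 45.2, 37.4 and 38.5 FPKM in yellow. Without red replicate 1, Solyc01g090350 was at least 1615-fold lower in red, with the floor of 3 counts over the 2 remaining libraries. Solyc01g081600 had 0 in all red libraries and 4.87, 4.20 and 4.23 FPKM in yellow, at least 88.5-fold lower by the same floor. A tonoplast intrinsic protein, Solyc03g019820, which passes water into the vacuole, had 1.10, 0 and 0 FPKM in red and 8.35, 9.94 and 9.01 FPKM in yellow, at least 492-fold lower without red replicate 1. The cysteine protease RD19D (Solyc11g008260) had 2.74, 0 and 0 FPKM in red and 15.8, 15.5 and 17.3 FPKM in yellow, at least 1141-fold lower without it. Poly(ADP-ribose) polymerase (Solyc11g067250), a DNA repair enzyme, had 1.47, 0 and 0 FPKM in red and 9.80, 10.5 and 10.6 FPKM in yellow, and the reticulon-like Solyc02g090370 had 2.91, 0 and 0 FPKM in red and 11.6, 12 and 11.2 FPKM in yellow. All of these genes had 0 counts in red replicates 2 and 3, apart from Solyc01g090360. Whether the RNA of seeds has a part in these differences was not tested.

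**Figure D3:**
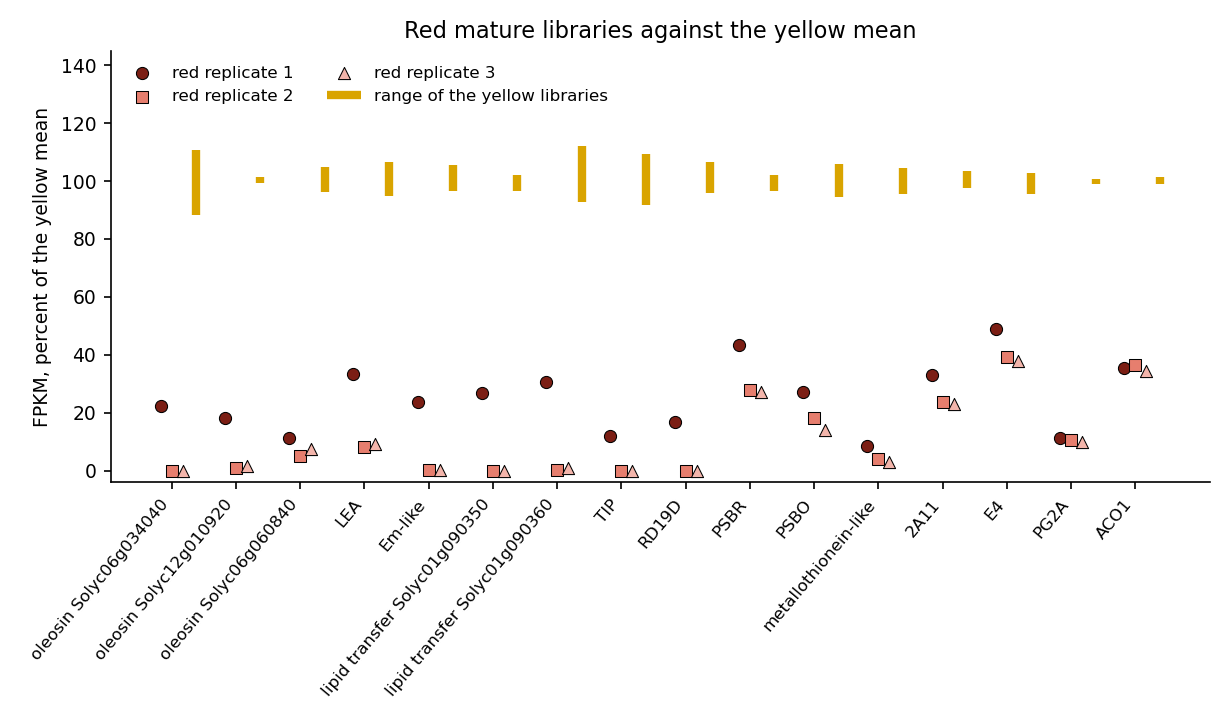
FPKM of 16 genes in the red mature libraries as a percent of the mean of the 3 yellow mature libraries (vertical axis); circles, squares and triangles are red replicates 1, 2 and 3, and yellow bars show the range of the yellow libraries. Red replicate 1 lies above replicates 2 and 3 for the oleosins, lipid-transfer proteins and Em-like gene, at 22.4% against 0 for the oleosin Solyc06g034040, while the 3 red libraries lie together for PG2A and ACO1.

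Leaving out red replicate 1 also moved the fitted fold changes of genes with no description. Solyc03g031870, Solyc09g065470, Solyc01g098850 and Solyc09g098120, each with a mean of at least 5 FPKM in yellow, were chosen after their values were seen. Their red counts without that library are 0, so the fitted fold is then no measure of size and no order among them is given. Solyc03g031870 had 2.52, 0 and 0 FPKM in red and 147, 131 and 129 FPKM in yellow, and its log2 fold change with all libraries was -7.49 ± 0.69. It carries no description and is the next tested gene after PSY1 on chromosome 3, at 3:4360604-4363707 on the same strand. PSY1 was higher in red and this neighbour lower by at least 16522-fold without red replicate 1. At color break its log2 fold change was -5.91 ± 0.62, so it was lower in red there too. The other three genes also had 0 in red replicates 2 and 3. Solyc09g065470 had 11.6, 0 and 0 FPKM in red, against 54.9, 55.6 and 55.4 FPKM in yellow. Solyc01g098850, annotated as an oxidoreductase, had 6.99, 0 and 0 FPKM in red, against 39.9, 42.2 and 42.2 FPKM in yellow, and Solyc09g098120 had 6.55, 0 and 0 FPKM in red, against 39.0, 38.9 and 39.4 FPKM in yellow.

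Some of the most abundant transcripts of the fruit were lower in red. The fruit-specific 2A11 (Solyc07g049140), which leads all genes by FPKM in yellow, had 6919.7, 4983 and 4798 FPKM in red and 21692, 20498 and 20744 FPKM in yellow. The log2 fold change was -2.05 ± 0.11 (adjusted p = 2.86e-09, edgeR) and -2.25 without red replicate 1, and the red libraries held 33.0, 23.8 and 22.9% of the yellow mean. The metallothionein-like gene Solyc06g076140, of a family of small metal-binding proteins, had 46.7, 23.0 and 17.2 FPKM in red and 579, 529.5 and 552 FPKM in yellow. Its log2 fold change was -4.39 ± 0.28, or -4.93 without red replicate 1, whose level was again the highest of the red ones. Another metallothionein-like gene, Solyc04g058150, had 13.9, 10.1 and 7.66 FPKM in red, against 6.98, 5.37 and 6.83 FPKM in yellow, and was not called. A lipid-transport gene without description, Solyc02g086310, had 95.0, 64.1 and 48.5 FPKM in red and 697, 642 and 648 FPKM in yellow, and it was chosen after its values were seen. SEP2 (Solyc04g053130), which the table annotates to the chloroplast thylakoid membrane, had 492, 399 and 402 FPKM in red and 824, 799.8 and 796 FPKM in yellow; its log2 fold change of -1.04 ± 0.07 fell under the minimum without red replicate 2 (-0.98) or red replicate 3 (-0.99).

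The most abundant rises came from genes that mostly lack a symbol, and these too were chosen after their values were seen. Solyc11g039860, a locus with no annotation, had 709, 606 and 706 FPKM in red and 5.15, 5.66 and 6.10 FPKM in yellow, a log2 fold change of 6.75 ± 0.20, against 0.56 ± 0.26 at color break. Solyc01g006430, annotated to lipid metabolism as an oxidoreductase, had 532, 658 and 616 FPKM in red and 52.4, 56.9 and 58.1 FPKM in yellow, a log2 fold change of 3.29 ± 0.07. The aspartic endopeptidase Solyc05g051240 had 913, 1054 and 1021 FPKM in red and 355, 365 and 356 FPKM in yellow, a log2 fold change of 1.33 ± 0.04. In all 3 genes every red library lay above every yellow one. A phosphoglycerate mutase, Solyc07g044840, of glycolysis, had 794, 795 and 805 FPKM in red, against 272, 279 and 289 FPKM in yellow. A triglyceride lipase, Solyc12g055730, had 589.5, 636 and 657 FPKM in red, against 200.4, 199 and 199 FPKM in yellow. The gene Solyc09g092480, with UDP-glycosyltransferase activity and terms of abscisic acid signalling, had 97.1, 112 and 109.7 FPKM in red and 5.39, 5.32 and 5.31 FPKM in yellow. Its log2 fold change of 4.17 ± 0.07 was close to the 3.81 ± 0.07 of color break.

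Among genes with a symbol or description, a mean of at least 10 FPKM in the higher group and no overlap, the largest rises by fold also held genes outside the flavonoid pathway. Elongation factor 1-alpha (Solyc11g069700), of protein synthesis, had 17.1, 16.9 and 18.8 FPKM in red and 1.80, 1.99 and 1.74 FPKM in yellow, a log2 fold change of 3.11 ± 0.08; this factor has near-identical copies, between which reads may be divided. An aldehyde dehydrogenase (Solyc01g011510) had 12.1, 14.1 and 11 FPKM in red, against 2.52, 2.91 and 2.77 FPKM in yellow. A group II intron locus (ENSRNA050030006 of the table) had 134, 148 and 137 FPKM in red and 2.03, 1.32 and 2.53 FPKM in yellow, and a locus of large-subunit ribosomal RNA (ENSRNA050030024) had 14.3, 16.0 and 15.8 FPKM in red and 0.0558, 0.0907 and 0.0630 FPKM in yellow. Both belong to repeated sequence, so their counts are uncertain. By gene type, 1 of 33 tested rRNA loci was called higher and 13 lower, with or without red replicate 1, in libraries selected for poly(A) RNA. An E3 ubiquitin transferase (Solyc03g115920) had 70.1, 64.2 and 71.4 FPKM in red, against 24.6, 22.3 and 24.0 FPKM in yellow.

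Surface genes held 1 rise and 3 falls, and the falls were of weakly expressed genes. In the epidermis and cuticle list 10 of 18 genes were tested, 1 called higher and 3 lower, with a median of -0.13. The 3-ketoacyl-CoA synthase Solyc04g080450, which lengthens fatty acids for waxes, had 55.8, 62.6 and 60.9 FPKM in red and 21.0, 20.5 and 22 FPKM in yellow, a log2 fold change of 1.36 ± 0.05. Among the falls, the relative Solyc12g006820 had 1.12, 0.904 and 0.685 FPKM in red, against 2.15, 2.14 and 2.09 FPKM in yellow. The falls of Solyc03g005320 and Solyc12g056720 rested on 0 to 12 and 4 to 11 counts in the yellow libraries. Both of these calls were lost with only the 6 mature libraries and in limma. Solyc04g080450 made up most of the list's summed FPKM of 88.2, 98.7 and 97.6 in red and 54.3, 55.1 and 54.0 in yellow. CER6 (Solyc02g085870), the main wax elongase of tomato fruit, had 4.92, 6.21 and 6.17 FPKM in red, against 4.47, 4.68 and 3.65 FPKM in yellow, and CD2, a regulator of the cuticle, had a log2 fold change of -0.22 ± 0.09; neither was called. Of 7 vascular genes 1 was tested. That gene, the fasciclin-like arabinogalactan protein Solyc07g048085, had 25, 26.1 and 23.6 FPKM in red and 97.5, 109 and 103 FPKM in yellow, a log2 fold change of -2.19 ± 0.05, while laccases, which make lignin in xylem, reached at most 0.582 FPKM in any mature library.

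Defence and stress genes showed both directions. Among 8 tested genes for chitinases, glucanases and pathogenesis-related proteins 2 were called higher and 1 lower, with a median of 0.26 (0.07 without red replicate 1). The basic endochitinase CHI9 (Solyc10g055810), which attacks fungal walls, had 20.5, 20.4 and 20.7 FPKM in red and 6.19, 5.58 and 5.44 FPKM in yellow, a log2 fold change of 1.70 ± 0.14. The pathogenesis-related protein P2 (Solyc01g097240) had 4.95, 5.50 and 3.02 FPKM in red, against 0.658, 1.17 and 2.34 FPKM in yellow. The acidic endochitinase CHI3 (Solyc02g082920) had 6.55, 6.74 and 4.94 FPKM in red, against 10.6, 12.3 and 11.9 FPKM in yellow, and its call was lost without red replicate 3 (-0.94). Of 24 tested heat-shock genes 2 were called, both lower, a share near the 7.89% of all genes called lower, with a median of -0.06. HSP21 (Solyc03g082420), a chaperone of the plastid, had 324, 319 and 319 FPKM in red and 615, 635 and 637 FPKM in yellow, a log2 fold change of -1.11 ± 0.04. The mitochondrial small heat-shock protein Solyc12g042830 had 19.6, 16.5 and 17.3 FPKM in red, against 63.1, 55.6 and 63.7 FPKM in yellow.

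Of 64 tested proteinases and inhibitors 3 were called higher and 8 lower, with a median of -0.12. The aspartic proteinase PCS1 (Solyc09g011040), tied to programmed cell death in Arabidopsis, had 63.7, 80.8 and 75.3 FPKM in red and 32.2, 31.5 and 27.5 FPKM in yellow, a log2 fold change of 1.13 ± 0.09. The Clp protease subunit Solyc09g065790, of a plastid-type protease, had 4.28, 4.04 and 4.57 FPKM in red, against 0.321, 0.834 and 0.373 FPKM in yellow. In the other direction, the carboxypeptidase Solyc12g099160 had 1.54, 1.80 and 1.30 FPKM in red, against 6.47, 7.03 and 7.34 FPKM in yellow. The LysM-domain protein Solyc01g112080, whose domain binds chitin, had 0.707, 1.10 and 0.908 FPKM in red and 12.5, 12.9 and 12.8 FPKM in yellow and a log2 fold change of -3.94 ± 0.13.

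The histone genes that were called were all lower in red, while the called cyclins were higher. Among 49 tested histone and cell-cycle genes 2 were called higher and 12 lower, with a median of -0.36, and 2 and 15 without red replicate 1, with a median of -0.44. The 12 were core histones of the H2A, H3 and H4 families, which package DNA. The histone H2A gene Solyc01g099410 had 42.9, 32.6 and 30.8 FPKM in red and 129.8, 138 and 128 FPKM in yellow, a log2 fold change of -2.03 ± 0.10. The histone H4 gene Solyc04g011390 had 62.2, 38.2 and 39.6 FPKM in red and 123, 112 and 111 FPKM in yellow, a log2 fold change of -1.44 ± 0.15. Red replicate 1 was the highest red library in both, though still below all yellow ones; histone copies are near-identical, so reads may be divided between them. The 2 rises were cyclins, which pace the cell cycle: cyclin-D1-1 (Solyc05g006050) had 1.96, 1.63 and 1.86 FPKM in red, against 0.461, 0.412 and 0.352 FPKM in yellow, and cyclin-J18 (Solyc04g078500) had 7.25, 7.12 and 6.64 FPKM in red, against 2.95, 3.26 and 2.45 FPKM in yellow. Of 50 tested cytosolic ribosomal proteins 1 was called, lower, a smaller share than the 7.89% of all genes. An adjusted p under 0.05 in edgeR was reached by 44, beside 57.1% of all genes tested, and the median was -0.33. The called gene, for the acidic protein P0 (Solyc09g091520), had 1.07, 1.18 and 0.858 FPKM in red, against 4.32, 4.01 and 4.61 FPKM in yellow.

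Transcription factors and auxin genes held more rises than falls. Among 60 tested members of transcription factor families 7 were called higher and 4 lower, with a median of 0.15, and 8 and 4 without red replicate 1; MYB12 is 1 of the 7. WRKY3 (Solyc09g015770), of a family tied to defence, had 22.2, 28.3 and 23.8 FPKM in red and 8.06, 7.59 and 8.32 FPKM in yellow, a log2 fold change of 1.49 ± 0.08. The NAC protein Solyc02g077610 had 1.09, 1.38 and 1.46 FPKM in red, against 0.330, 0.578 and 0.353 FPKM in yellow. The zinc finger protein WIP4 (Solyc11g062060) had 0.647, 0.648 and 0.413 FPKM in red and 6.69, 5.47 and 5.85 FPKM in yellow, a log2 fold change of -3.52 ± 0.15, the largest fall of the list. NAP1 (Solyc05g007770), a NAC factor, had 11.3, 12.9 and 10.5 FPKM in red, against 21.6, 22.7 and 21.9 FPKM in yellow. In the table's own annotation of the ethylene response factor family 3 of 24 tested genes were called higher and 5 lower.

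Of 31 tested auxin genes 4 were called higher and 1 lower, with a median of 0.21. Auxin-responsive proteins mostly repress the genes that auxin turns on. The auxin-responsive Solyc08g021820 had 3.55, 3.65 and 3.90 FPKM in red and 0.683, 0.570 and 0.930 FPKM in yellow, a log2 fold change of 2.2 ± 0.26. Another, Solyc09g064530, had 4.29, 4.82 and 4.62 FPKM in red, against 1.49, 1.51 and 1.60 FPKM in yellow, and the efflux carrier Solyc03g118740, which pumps auxin out of cells, had 1.34, 1.64 and 1.89 FPKM in red, against 0.434, 0.593 and 0.595 FPKM in yellow. The fall was that of an IAA-amino acid hydrolase (Solyc06g073050), which frees stored auxin, with 74.6, 83.3 and 79.3 FPKM in red and 142, 150.2 and 149 FPKM in yellow. The rises were of genes under 5 FPKM, whereas the gene that fell was above 70 FPKM in every library.

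Modifying enzymes were lower in red where called, with few exceptions. Of 16 tested peroxidases 3 were called, all lower, with a median of -0.24. The glutathione peroxidase Solyc08g006720 was the most abundant of them, with 64.7, 57.6 and 53.8 FPKM in red, against 118, 119 and 106 FPKM in yellow. Of 27 tested glycosyltransferases 4 were called, all lower, with a median of -0.22 (-0.11 without red replicate 3). Solyc02g085660, the member with the highest yellow level of these 4, had 1.18, 0.933 and 1.03 FPKM in red and 14.2, 12.2 and 10.7 FPKM in yellow, a log2 fold change of -3.69 ± 0.13. Solyc12g057060 had 0 counts in all red libraries and between 63 and 122 in the yellow ones, at least 59.9-fold lower by the same bound. Of 6 tested cytochromes P450, 1 was called higher and 1 lower, with a median of -0.09. The higher one (Solyc04g080650) had 2.73, 3.12 and 2.73 FPKM in red, against 1.05, 1.38 and 1.39 FPKM in yellow, and its call was lost without red replicate 2 (0.97) or yellow replicate 1 (0.91). Of the 7 steroidal glycoalkaloid genes, which make the bitter alkaloids of green fruit, the table's GAME11 (Solyc07g043420) alone passed the filter, with 0.817, 0.520 and 0.205 FPKM in red and 1.98, 1.97 and 2.22 FPKM in yellow. It was called lower at a log2 fold change of -2.13 ± 0.25. Aquaporins other than the tonoplast gene above included Solyc06g011350, with 9.45, 8.39 and 7.23 FPKM in red, against 16.4, 17.2 and 17.2 FPKM in yellow; of 5 tested aquaporins 1 was called higher and 2 lower, with a median of -0.42 (-0.93 without red replicate 1). The higher one, TIP4-1 (Solyc08g066840), was not called by DESeq2 or without yellow replicate 2 or 3.

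**Figure D4:**
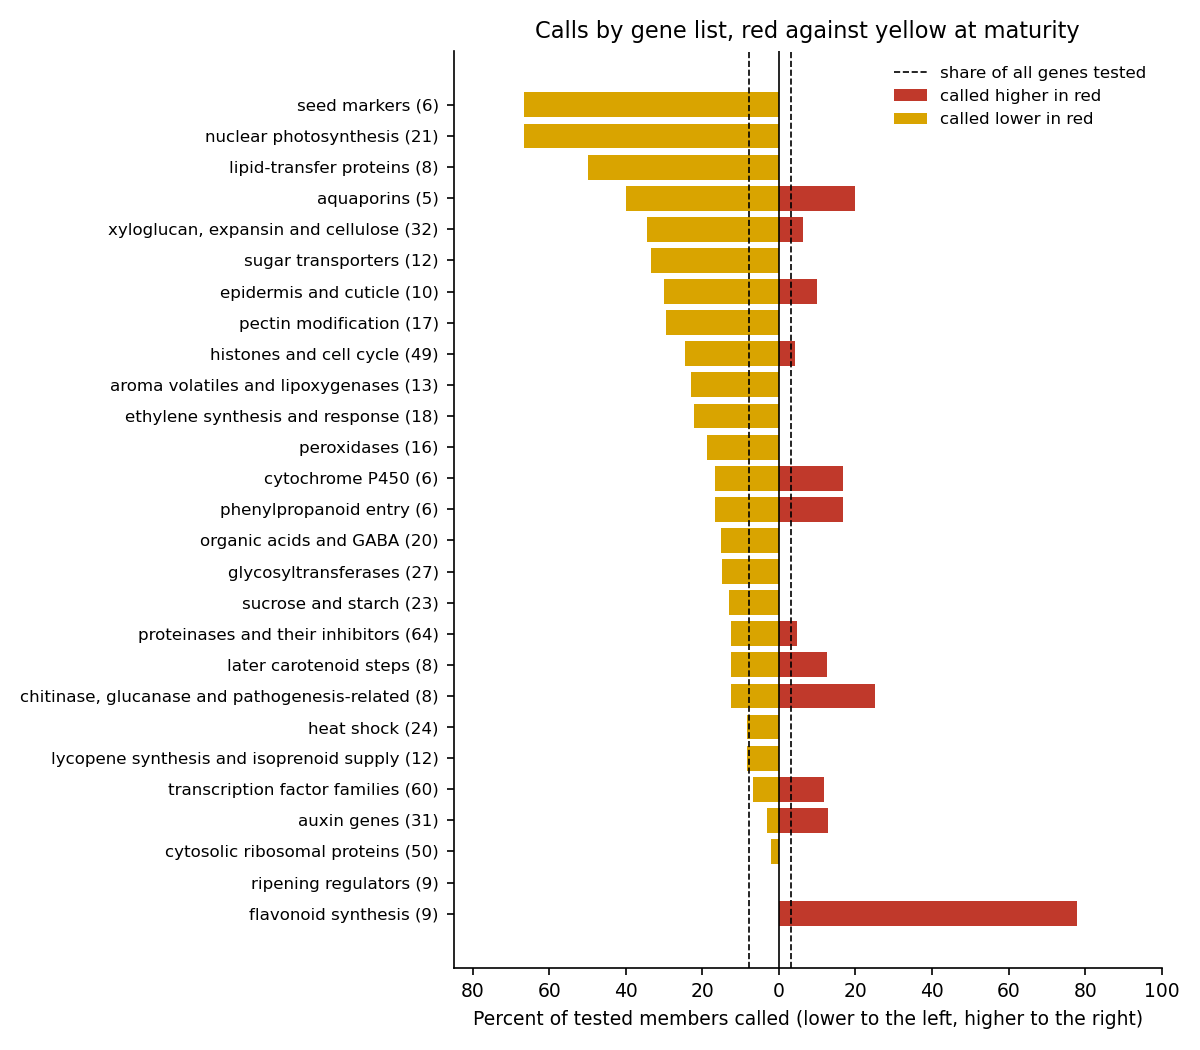
Percent of the tested members of each gene list (number tested in brackets) that were called lower in red (bars to the left of 0) or higher in red (bars to the right) at maturity; lists with at least 5 tested members are shown. Dashed lines mark the share of all genes tested, 7.89% lower and 3.26% higher. Seed markers and nuclear photosynthesis have the longest bars to the left and flavonoid synthesis the longest to the right.

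The red-yellow difference at maturity was then set beside that at color break, where 991 genes were called (6.2%). The 2 comparisons share no library. At both stages 322 genes were called in the same direction, 150 higher and 172 lower, while 220 were called in opposite directions and 1239 at maturity alone. Of the 220, 196 were lower in red at maturity and higher in red at color break, and 24 were the reverse. Without red replicate 1, with the same calls at color break, 327 were called in the same direction, 156 higher and 171 lower, and 232 in opposite directions, 207 of them lower in red at maturity. The difference of the 2 contrasts, tested in the same edgeR fit, was past the limits of a call in 1954 genes (12.2%), and in 2085 without red replicate 1. Among the 12 genes always described it passed an adjusted p of 0.05 in 9.

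Of these 12, PG2A had the largest difference between the stages. Its red-yellow log2 fold change was -3.38 ± 0.05 at maturity and -0.01 ± 0.04 at color break, a difference of -3.37 ± 0.06 (adjusted p = 1.61e-13, edgeR). At color break it had 4418 ± 163 FPKM in red and 4462 ± 120.3 FPKM in yellow (SD, n = 3 each). ACO1 stood at -1.63 ± 0.03 at maturity and 0.25 ± 0.03 at color break, a difference of -1.88 ± 0.04. The flavonoid genes were higher in red at both stages but less so at maturity. Their difference of contrasts was -3.19 ± 0.20 for CHS1, -3.0 ± 0.19 for CHS2, -2.02 ± 0.15 for F3H and -1.31 ± 0.28 for MYB12. CHS2 reached 185 ± 0.421 FPKM in red and 1.49 ± 0.295 FPKM in yellow at color break (SD, n = 3 each). LOXC was the exception among the falls, lower in red at both stages and less so at maturity, with a difference of 0.86 ± 0.04. The difference was -0.27 ± 0.03 for PSY1 and -0.36 ± 0.04 for E8. For RIN the edgeR adjusted p of the difference was 0.285, for NOR 0.206 and for Solyc06g076140 0.538.

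**Figure D5:**
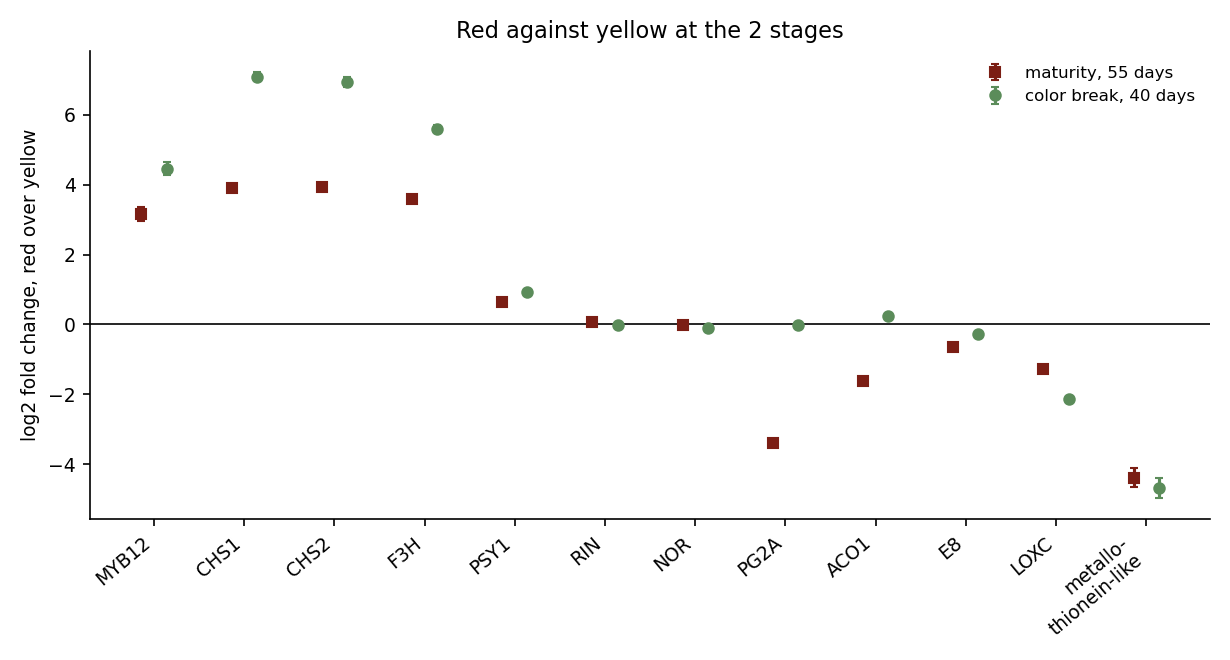
Log2 fold change of red over yellow fruit (vertical axis, bars are standard errors) for 12 genes at maturity (squares, 55 days) and at color break (circles, 40 days). PG2A and ACO1 lie well below 0 at maturity and near 0 at color break, and the flavonoid genes lie above 0 at both stages.

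Along the chromosomes the share of genes called ran between 9.66% on chromosome 7 and 14.9% on chromosome 9. On chromosome 9, 66 genes were called higher and 107 lower of 1158 tested, and at color break 9.41% of its genes were called, the highest share of the 12 chromosomes there as well. Neighbouring genes are not independent, so these shares are a description. In 10 places at least 4 adjacent tested genes were called in the same direction, 8 of them lower and 2 higher in red. On chromosome 11, between 20569848 and 21738207 of the table's coordinates (the sources used here give no build), the 5 genes Solyc11g028167, Solyc11g028170, Solyc11g028175, Solyc11g028180 and Solyc11g030380 had log2 fold changes between -7.75 and -4.56. The first of them, Solyc11g028167, had 0.445, 0 and 0 FPKM in red and 19.0, 19.4 and 20.0 FPKM in yellow. The last, Solyc11g030380, had 1.54, 1.11 and 1.12 FPKM in red and 27.8, 27.5 and 25.4 FPKM in yellow. At color break the log2 fold changes of the 5 lay between 0.06 and 1.01. On chromosome 1, between 98088188 and 98117419, 4 adjacent genes had log2 fold changes between -3.94 and -2.67, among them the LysM-domain gene above. Another was the flavin-containing monooxygenase Solyc01g112100, with 3.72, 3.20 and 2.42 FPKM in red and 35.8, 35.7 and 34.8 FPKM in yellow. Its coordinates (98114882-98117373) lie within those of its neighbour Solyc01g112090 (98106678-98117419), so reads may be divided between them. On chromosome 2, between 54223274 and 54231313, 5 adjacent genes from Solyc02g092515 to Solyc02g092527 were higher in red, with log2 fold changes between 1.58 and 1.99. Some of these loci nearly touch: Solyc02g092515 ends at 54225568 and Solyc02g092517 starts at 54225590. Whether they are separate transcripts was not tested. All 3 places kept their calls without red replicate 1. Loci also lie close on chromosome 11, where Solyc11g028167 ends at 20575710 and Solyc11g028170 starts at 20575838. Whether these are separate transcripts was not tested either. The first 4 genes of that place had 0 counts in red replicates 2 and 3. Without red replicate 1 they were at least 713-fold (Solyc11g028167), 512-fold (Solyc11g028170), 1433-fold (Solyc11g028175) and 198-fold (Solyc11g028180) lower in red, by the floor of 3 counts over the 2 remaining libraries.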

How the data were processed

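The tomato fruit RNA was selected by oligo(dT) and made into strand-marked paired-end libraries, per the labels' protocols. The submitters' processing notes list StringTie 2.1.6, HISAT2 2.2.1 and cutadapt 1.9, besides edgeR and DESeq2, without roles or order. For the genome build, the annotation and the use of strand in counting, nothing is stated in those notes, the labels or the table. The deposited table holds, per gene and library, raw read counts and FPKM computed by the authors. Counts were tested, and FPKM set the filter and the printed levels.

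Counts of all 12 libraries (50963462 to 60854667 in total) were fitted with edgeR 4.0.16 in R 4.3.3, with TMM factors, a mean for each of 4 groups and a common biological coefficient of variation of 0.0869. The contrasts were red over yellow at maturity, the same at color break, and their difference. A call needed a Benjamini-Hochberg adjusted p under 0.05 over the 15974 tested genes together with a log2 fold change of size 1 or more. Standard errors are the fold change divided by the square root of the F statistic. The code was tested on simulated data. Alternatives were DESeq2 1.42.0, limma 3.58.1 on log2(FPKM + 1) or log2(FPKM + 0.1), other scalings and filters, a replicate block, and each mature library left out.

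The 31 gene lists came from symbols, descriptions and known tomato identifiers, and 30 genes were taken out of lists by annotation. The comparison, its members and the lists were chosen with earlier results of these data known. Named genes are 12 that are always described, then, among genes called with and without red replicate 1 that do not overlap and have a symbol, a description or a place in a list, the 10 largest rises and falls by fold with a mean of at least 10 FPKM in the higher group, the 6 largest by difference in FPKM, up to 4 per list, and the 5 with a yellow mean of at least 5 FPKM whose fitted fold change moved most without red replicate 1. Genes outside this rule were chosen after their values were seen. A symbol or description is given for 3714 of the tested genes and for 408 of the 1781 calls.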

Additional observations from a re-analysis of the deposited data

Results flagged for a closer look

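The red-yellow contrast differed between the stages, by edgeR's test of the difference of contrasts, in 9 of the 12 genes always described. The difference, maturity minus color break on the log2 scale, was -3.37 for PG2A, -3.19 for CHS1, -3.0 for CHS2, -2.02 for F3H, -1.88 for ACO1, -1.31 for MYB12, -0.36 for E8, -0.27 for PSY1 and 0.86 for LOXC. Among all genes tested, 46.7% had an adjusted p under 0.05 for this difference.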

How the results depend on the processing

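Of 188 called genes that are named or in a list, all 188 kept direction and call with RLE or upper-quartile scaling and with the replicate block. Calls were lost by 12 with library totals alone, 58 in limma on log2(FPKM + 1), 21 with a pseudocount of 0.1, 2 with no filter, and 3 to 10 when a mature library was left out; 0 reversed under any alternative run. DESeq2 lost 2 and gave no adjusted p for 19. The total of 1781 calls lay between 1718 and 1923 on leaving out a library (512 to 544 higher, 1206 to 1386 lower). Limma on log2(FPKM + 1) called 942 genes, 574 of them lower, and without red replicate 1 it called 1032, 636 of them lower. After rescaling to a fixed total it called 950, 550 of them lower. With no filter 782 were higher. With no minimum change 9124 passed, 4325 higher and 4799 lower. In limma the difference of contrasts was -0.13 for PSY1, which no longer passed, and 0.21 for RIN and 0.22 for NOR, which passed there. The cause of these shifts was not tested.

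With a replicate block 1786 genes were called, 528 higher and 1258 lower. Same-numbered red and yellow libraries had correlated deviations of -0.04, -0.05 and -0.11, so the numbers did not pair them.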
